A study of Homo sapiens with 6 samples.

Results

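Myosins are motor proteins that use ATP to move along, or to pull on, actin filaments. Myosin VI, encoded by MYO6, is the only myosin known to walk toward the minus end of actin, and it works in endocytosis, autophagy and the Golgi, bound to its cargo through a tail that is altered by alternative splicing. Class V and class I myosins carry or tether membranes, myosin X builds filopodia, and the non-muscle myosin II heavy chains form the bipolar filaments that contract the cell cortex. MYO6 is known to be abundant in prostate cancer cells.

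The myosin genes described here are MYO6, MYO1C, MYO5B, MYO5C, MYO10, MYO18A, MYH9, MYH10 and MYH14. These 9 genes were chosen by name, with the values of the shPCAT1 against shSCR comparison already known, so their values in that comparison are a description and the test results support nothing by themselves. The deposited transcript table listed 8 of the 9 genes with 25 transcripts, out of 29091 transcripts of 11848 genes, and MYH14 was not analysed here. RNA-seq covered 6 samples of LNCaP-AI, which is the human prostate cancer line LNCaP after long culture in androgen-stripped medium and grows without androgen. In the shPCAT1 group, 3 samples carried an shRNA that targets PCAT1, a long non-coding RNA, and in the shSCR group 3 samples carried a scramble shRNA. The labels do not say that replicates came from separate cultures, so the errors and p-values cover the spread of these libraries alone, possibly a technical one, and all 6 derive from 1 cell line. Values are FPKM, fragments scaled to transcript length and to the mapped reads of the library, and the depth behind them is unknown. PCAT1 itself was not analysed here.

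MYO6 lies on chromosome 6 (hg19, plus strand), and its listed isoforms differ in 3 short exons of the tail region, which are shown because they tell MYO6-002, the isoform listed at 0 in every shSCR sample, from MYO6-001 and MYO6-003. Capitals mark the exon and lower case marks the 8 bases of intron on each side, read 5′ to 3′ from GRCh37. The first 2 exons were annotated (GENCODE release 44 on GRCh37) in MYO6-002 and in neither MYO6-001 nor MYO6-003, and the third was annotated in MYO6-002 and MYO6-001 but not in MYO6-003. The fragment MYO6-005 also holds the 30-base exon.
MYO6 exon of 30 bases, chr6:76604948-76604977: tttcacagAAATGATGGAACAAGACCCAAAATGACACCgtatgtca
MYO6 exon of 39 bases, chr6:76608090-76608128: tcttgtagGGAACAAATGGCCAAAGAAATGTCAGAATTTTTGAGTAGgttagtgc
MYO6 exon of 27 bases, chr6:76621389-76621415: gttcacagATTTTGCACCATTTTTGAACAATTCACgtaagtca

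All 3 lengths are multiples of a codon, so the exons add residues without shifting the frame. The 30-base and 39-base exons together encode 23 codons, in the position of the large insert of the myosin VI tail, and the 27-base exon encodes 9 codons, known as the small insert. The annotated coding lengths were 1285 codons for MYO6-002, 1262 codons for MYO6-001 and 1253 codons for MYO6-003. Isoforms with the large insert are known from polarised epithelia, where they localise to clathrin-coated structures at the apical surface.

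MYO6-002 was present at 4.77, 8.95 and 6.72 FPKM in the 3 shPCAT1 samples and was listed at 0 FPKM in all 3 shSCR samples. The groups did not overlap, and no fold is given because an exact 0 in this table can be a failed estimate. Across the whole table, 17 of 29091 transcripts (0.0584%) had the same form, at 0 in every shSCR sample and at 1 FPKM or more in every shPCAT1 sample, and 6 transcripts had the opposite form. In 14 of the 17, another transcript of the same gene was listed. By mean level in shPCAT1 samples, MYO6-002 ranked 7 among the 17.

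MYO6-002 was the sole member transcript called in the limma fit over all transcripts, where called means an adjusted p of at most 0.05 (1 of 22 tested, 4.55%). In that fit 12 of 20474 tested transcripts (0.0586%) were called higher and 8 (0.0391%) were called lower. An unadjusted p of at most 0.05 was reached by 1 member transcript, beside 1935 of the 20474. The fitted difference of MYO6-002, 2.93 ± 0.30 (SE) on the log2(FPKM + 1) scale, shPCAT1 minus shSCR, depends on the added 1 FPKM and is not a fold. MYO6-002 passed the filters for listing and testing only through its shPCAT1 values. Its shSCR values, all listed at 0, added no spread to the standard error, so the call is a description alone. The call stood in 1 of the 15 alternative analyses that could include MYO6-002 and was lost in 14, including each of those that left out a sample.

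MYO6-001, which has the small insert alone, had 8.70, 6.81 and 18.6 FPKM in shPCAT1 samples, against 6.66, 6.74 and 0 FPKM in shSCR samples. The groups were separated by less than 0.1 FPKM, between shPCAT1 replicate 2 and shSCR replicate 2, and the difference was not called (1.55 ± 0.88 on the log2 scale). Without shSCR replicate 3, the sample listed at 0, the fitted difference was 0.57. MYO6-201, absent from the annotation used, had 5.60, 1.09 and 0.841 FPKM in shPCAT1 samples and 1.06, 0.611 and 3.97 FPKM in shSCR samples, so that 1 high sample stood in each group.

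MYO6-003, the form with no insert, was the most abundant isoform of the gene on average, at 22.7, 25.5 and 16.0 FPKM in shPCAT1 samples and 20.8, 18.5 and 19.5 FPKM in shSCR samples. The shSCR values all lay inside the shPCAT1 range. MYO6-006 had 9.64, 11.0 and 7.99 FPKM in shPCAT1 samples, against 12.2, 14.4 and 16.3 FPKM in shSCR samples. Every shPCAT1 value was below every shSCR value, with a ratio of means of 0.666, and the fitted difference of -0.54 ± 0.23 was not called.

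MYO6-005 is a short annotated fragment of 522 bases within the tail region (chr6:76599927-76618277). It had 11.2, 12.2 and 11.4 FPKM in shPCAT1 samples, against 4.15, 6.50 and 19.3 FPKM in shSCR samples. The shPCAT1 samples were close together and the shSCR samples spread on both sides of them, with replicate 3 the highest. Without shSCR replicate 3 the ratio of means was 2.18, and with it the ratio was 1.16.

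**Figure D1:**
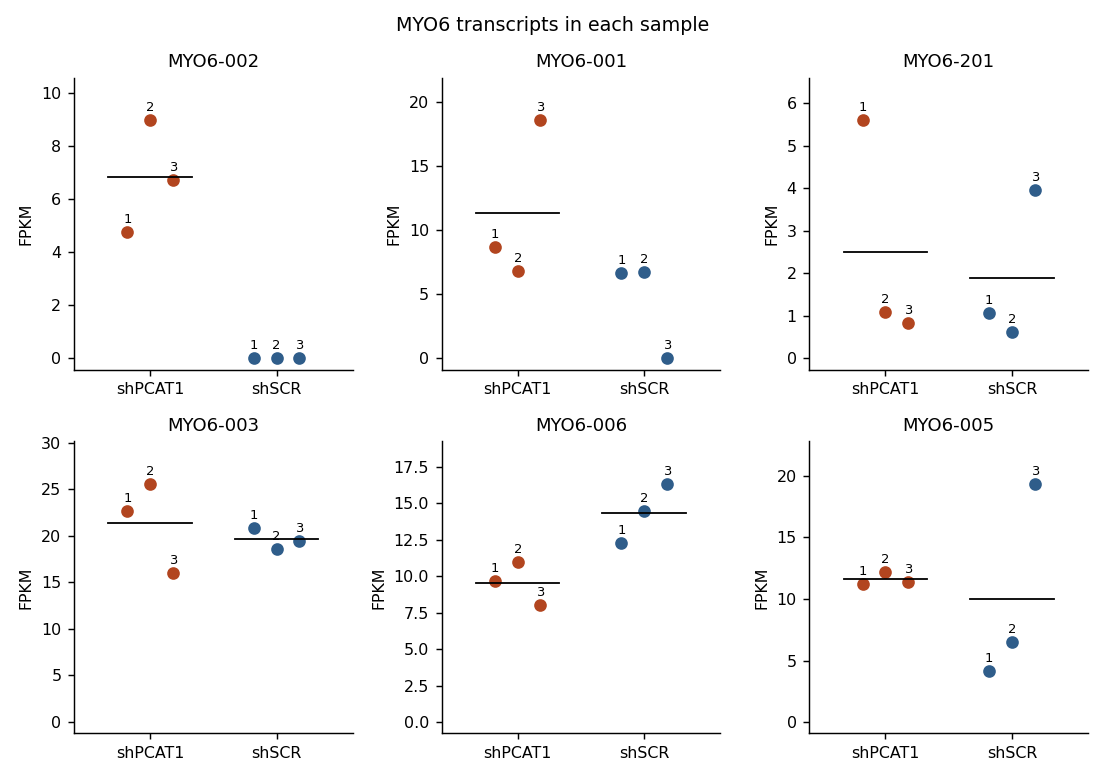
The 6 listed MYO6 transcripts in each sample, in FPKM, with shPCAT1 samples at left and shSCR samples at right. Points are samples, numbers are replicates and bars are group means, drawn only where no sample of the group was listed at 0. MYO6-002 had 4.77 to 8.95 FPKM in shPCAT1 samples and was listed at 0 in all shSCR samples.

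The listed MYO6 isoforms also differed in where the table placed their start, and this grouping was made after the values were seen. MYO6-201, MYO6-001 and MYO6-002 began in or just before the first annotated exon, between positions 76458909 and 76459049, whereas MYO6-003 and MYO6-006 began at 76527240 and 76527241, inside annotated exon 2. The 3 isoforms that began there summed to 19.1, 16.9 and 26.1 FPKM in shPCAT1 samples, against 7.72, 7.35 and 3.97 FPKM in shSCR samples. All shPCAT1 sums were above all shSCR sums. These sums include MYO6-002, listed at 0 in every shSCR sample, and MYO6-001, listed at 0 in shSCR replicate 3. Part of the separation was thus fixed by the grouping, and no ratio is given. The 2 isoforms that began in exon 2 summed to 32.3, 36.5 and 24.0 FPKM in shPCAT1 samples and 33.1, 33.0 and 35.8 FPKM in shSCR samples, and these ranges overlapped. The later annotation used here placed the starts of MYO6-003 and MYO6-006 in the first exon too, so the split exists only in the table's older models.

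As a share of the summed MYO6 FPKM, MYO6-002 made up 7.62%, 13.7% and 10.9% in shPCAT1 samples and 0% in each shSCR sample, a difference of 10.7 percentage points. MYO6-006 made up 15.4%, 16.7% and 13.0% in shPCAT1 samples, against 27.3%, 30.8% and 27.6% in shSCR samples, a difference of -13.5 percentage points. These were the 2 of 23 isoform shares (8.70%) in the 6 multi-isoform myosin genes whose groups did not overlap, and both differed by 10 percentage points or more. Over all genes with 2 or more listed transcripts, 14.0% of shares did not overlap. In 6.92% this came with a difference of at least 10 points. The myosin figure of 8.70% was below the first and above the second, and it rests on 2 isoforms of 1 gene. No member transcript reached a mean share difference of 20 percentage points. Shares of 1 gene sum to 100% and are not independent of each other.

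How well these isoforms can be told apart varied. Among the 4 MYO6 models compared, each cut into windows of 50 bases, the read length, MYO6-002 had 115 windows found in no other model, MYO6-005 had 106, MYO6-003 had 53 and MYO6-001 had 0. In these later models, any 50-base stretch of MYO6-001 thus lay whole in at least 1 other model compared, while MYO6-002 had 115 windows out of 8566. The later model of MYO6-002 ends at 76629254. In the older models listed with the FPKM, MYO6-002 ended at 76626329, MYO6-001 at 76629253 and MYO6-201 at 76629254. The counts may thus not hold for the older models, in which MYO6-001 extends beyond MYO6-002. The models are those of the later annotation, in which 22 of the 25 member transcripts were found and 9 had the same start and end as in the table. MYO6-201 was not found there and so was not compared, and MYO6-006 was left out because its later model is truncated. Whether the 115 windows of MYO6-002 also lie in either of these forms was not tested.

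The gene sum of MYO6 was 62.5, 65.5 and 61.5 FPKM in shPCAT1 samples, against 44.9, 46.8 and 59.1 FPKM in shSCR samples. All 3 shPCAT1 samples were above all 3 shSCR samples, with means of 63.2 ± 2.08 and 50.3 ± 7.67 FPKM (SD, n = 3 each) and a ratio of 1.26. The limma fit gave a log2 difference of 0.33 ± 0.16 and did not call it. Without shSCR replicate 3 the difference was 0.45 ± 0.06 and was called, as were 8.03% of all genes tested in that fit. It was 0.10 ± 0.23 after correction of each library for the GC content of the genes, with all samples, and 0.36 ± 0.07 after GC correction without that library, and neither was called.

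In the limma fit over gene sums, 0 of the 8 member genes were called, beside 95 of 10825 genes tested (0.878%). An unadjusted p of at most 0.05 was reached by 0 of the 8, beside 1867 of the 10825. The groups did not overlap for 4 of the 8, beside 32.5% of all genes, with MYO6 above shSCR and MYO5B, MYO18A and MYH9 below it. By transcript, 5 of the 22 tested did not overlap (22.7%), beside 22.5% of all transcripts. The median log2 difference of the 8 genes was -0.25, beside -0.05 for all genes, and without shSCR replicate 3 the medians were -0.08 and -0.01.

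The library shSCR replicate 3 stood apart from the others in the whole table. Its log2 values correlated with the other libraries at 0.809 to 0.845, whereas the other 5 correlated with each other at 0.910 to 0.946. It was the highest of the 6 samples for 40.5% of tested genes and the lowest for 30.4%, and it alone was listed at 0 for 968 transcripts with 1 FPKM or more in every other library, against 19 to 34 such transcripts in each of the others. Among the myosins it was the highest sample for 5 of 8 genes and 11 of 25 transcripts. All 10 LNCaP marker genes were listed, summing to 1408 to 1580 FPKM in shPCAT1 samples and 1745 to 2164 FPKM in shSCR samples, while HOXB13 was at 0.0555 FPKM in shSCR replicate 2 and 153 FPKM in shSCR replicate 3. Of 12 markers of other cell types 3 were listed, summing to 3.53 to 5.50 FPKM in shPCAT1 samples and 7.29 to 13.9 FPKM in shSCR samples, and their part in the results was not tested. In bulk RNA, fewer expressing cells and less RNA per cell cannot be told apart.

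**Figure D2:**
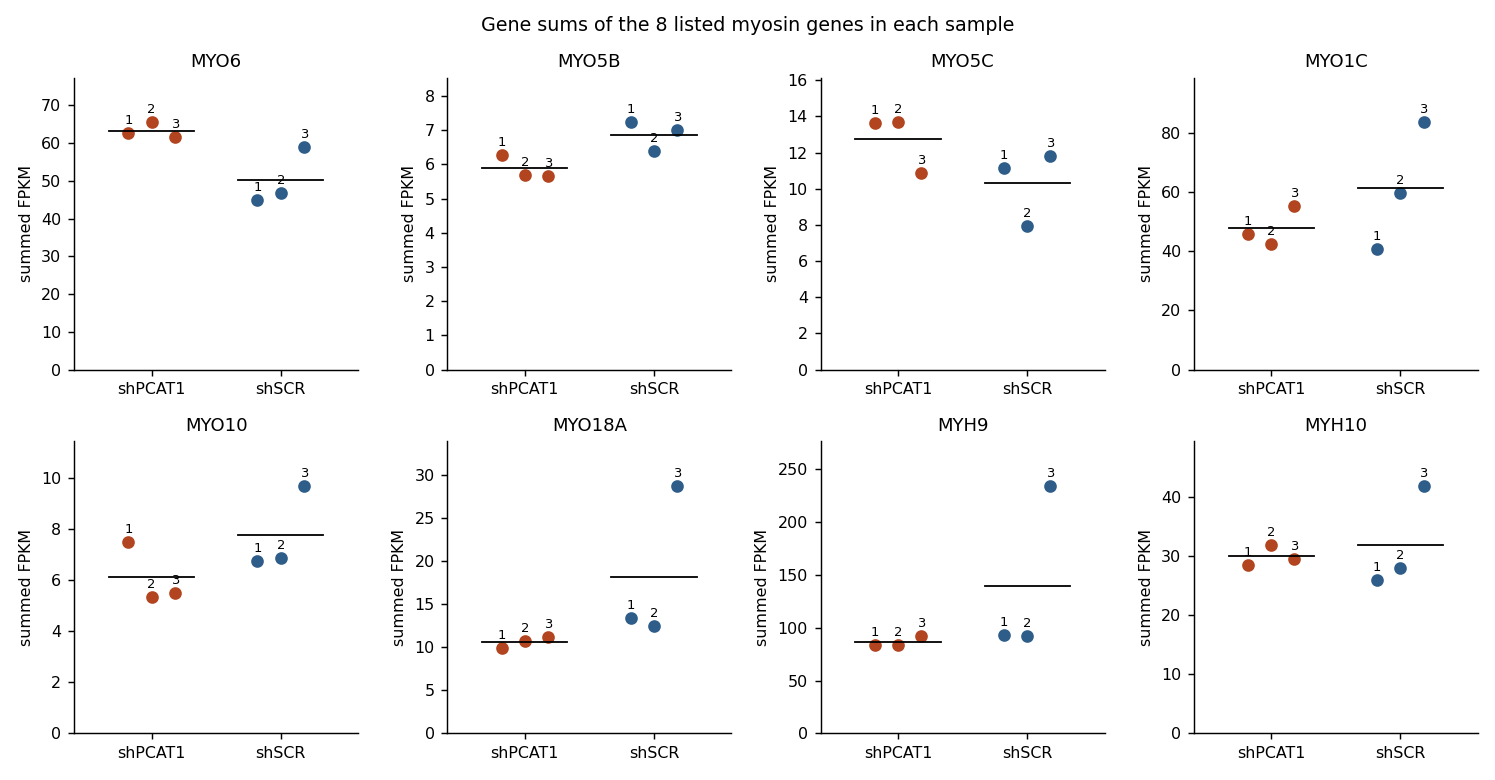
Summed FPKM of each listed myosin gene in each sample, with shPCAT1 at left and shSCR at right. Points are samples, numbers are replicates and bars are group means. MYO6 had 61.5 to 65.5 FPKM in shPCAT1 samples and 44.9 to 59.1 FPKM in shSCR samples, and MYH9 reached 234 FPKM in shSCR replicate 3.

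Class V myosins are processive carriers that hand recycling vesicles to the cortex. MYO5B, the partner of RAB11 in apical recycling, summed to 6.29, 5.70 and 5.66 FPKM in shPCAT1 samples, against 7.24, 6.39 and 7.00 FPKM in shSCR samples. Every shPCAT1 value was below every shSCR value, by as little as 0.1 FPKM between the nearest samples, and the log2 difference of -0.19 ± 0.15 was not called. Its main form, MYO5B-001, had 5.06, 4.36 and 5.66 FPKM in shPCAT1 samples and 5.22, 4.94 and 7.00 FPKM in shSCR samples, which overlapped. The shorter MYO5B-006, named after its values were seen, was listed at 0 in replicate 3 of both groups.

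MYO5C, a class V myosin of exocrine and other epithelia, summed to 13.6, 13.7 and 10.9 FPKM in shPCAT1 samples, against 11.2, 7.92 and 11.8 FPKM in shSCR samples. The ranges overlapped, and the log2 difference of 0.29 ± 0.20 was not called. Its full-length form, MYO5C-001, had 13.4, 13.3 and 10.6 FPKM in shPCAT1 samples, against 11.0, 7.68 and 6.09 FPKM in shSCR samples. MYO5C-001 held 97.5% to 98.3% of the gene in shPCAT1 samples and 97.1% to 98.8% in the first 2 shSCR samples, but 51.5% in shSCR replicate 3. In that library the short MYO5C-007 was at 5.74 FPKM, against 0.135 to 0.338 FPKM in the other 5. The difference in mean share of MYO5C-001 was 15.3 percentage points with that library and -0.17 without it.

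MYO1C, a short-tailed class I myosin that links membranes to cortical actin and has a nuclear isoform, summed to 45.8, 42.5 and 55.4 FPKM in shPCAT1 samples and 40.8, 59.8 and 83.6 FPKM in shSCR samples. The shSCR samples spread across and beyond the shPCAT1 range, and the log2 difference of -0.30 ± 0.28, or -0.05 ± 0.21 without shSCR replicate 3, was not called. Its most abundant form on average, MYO1C-010, had 19.8, 23.9 and 40.5 FPKM in shPCAT1 samples and 20.2, 28.5 and 54.3 FPKM in shSCR samples. In each group replicate 3 was the highest. Of the other 5 forms, MYO1C-201 held 24.3% to 51.8% of the gene in shPCAT1 samples and 29.2% to 43.3% in shSCR samples, and 3 forms were below the mean of 1 FPKM needed for testing.

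MYO10, encoding the filopodial motor myosin X, had 7.51, 5.37 and 5.50 FPKM in shPCAT1 samples and 6.77, 6.87 and 9.70 FPKM in shSCR samples, all from 1 listed transcript. The ranges overlapped, and the log2 difference of -0.30 ± 0.21, or -0.15 ± 0.16 without shSCR replicate 3, was not called. MYO18A, a myosin that binds actin and the Golgi protein GOLPH3, summed to 9.93, 10.7 and 11.1 FPKM in shPCAT1 samples, against 13.4, 12.4 and 28.7 FPKM in shSCR samples. All shPCAT1 samples were below all shSCR samples, and the log2 difference of -0.63 ± 0.33 was not called. Without shSCR replicate 3 it was -0.27 ± 0.09, and the ratio of means was 0.819, against 0.581 with that library. The main form, MYO18A-002, had 7.46, 8.90 and 9.52 FPKM in shPCAT1 samples and 12.4, 9.21 and 24.3 FPKM in shSCR samples, which overlapped.

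Among the non-muscle myosin II heavy chains, MYH9, which encodes the IIA chain of stress fibres and the contractile ring, had the highest level of the 8 genes. It was at 83.7, 84.0 and 92.3 FPKM in shPCAT1 samples, against 93.0, 92.4 and 234 FPKM in shSCR samples, from 1 listed transcript. The groups did not overlap, but shPCAT1 replicate 3 and shSCR replicate 2 were less than 0.1 FPKM apart. The log2 difference was -0.54 ± 0.38 with all samples and -0.10 ± 0.07 without shSCR replicate 3, and neither was called. The GC content of the highest model was 58.3% for MYH9 and 59.2% for MYO18A, the 2 genes with the largest excess in that library, beside a median of 48.5% over all tested genes and 40.1% for MYO6. After correction of each library for GC content, the difference was -0.21 ± 0.23 for MYH9 and -0.28 ± 0.17 for MYO18A. MYO10 and MYH10, at 49.3% and 49.1% GC, were also highest in that library. Other tested GC-rich transcripts went both ways. MYO18A-020, at 65.5% GC, and MYO5C-007, at 56.6%, were highest in that library. MYO1C-006, at 64.5%, and MYO18A-001, at 56.5%, were not, and neither was MYO1C-201, at 58.8%, with 17.7, 24.7 and 24.5 FPKM in shSCR samples. A part of GC content in the excess was not tested.

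MYH10, which encodes the IIB chain that sustains tension at the cell rear and in neurons, summed to 28.5, 32.0 and 29.6 FPKM in shPCAT1 samples and 25.9, 28.0 and 41.9 FPKM in shSCR samples. The log2 difference of -0.06 ± 0.21 was not called, and it changed sign under other scalings and without shSCR replicate 3. Its isoforms differ by inserts in the motor domain known mainly from neural tissue, shown here because the isoform mixture of MYH10 varied more between samples than its sum did. Capitals mark the exon on the minus strand of chromosome 17 and lower case marks the flanking intron. The 30-base form and the 27-base form share an end and differ by 3 bases at the start. The short MYH10-003 also holds the 30-base exon in the later annotation, but its older span, chr17:8480624-8534035, does not reach it.
MYH10 exon of 30 bases, in MYH10-002, chr17:8479961-8479990: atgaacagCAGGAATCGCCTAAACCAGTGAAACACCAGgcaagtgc
MYH10 exon of 27 bases, in MYH10-201, chr17:8479961-8479987: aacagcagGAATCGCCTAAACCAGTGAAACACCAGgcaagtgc
MYH10 exon of 63 bases, in MYH10-002, chr17:8433941-8434003: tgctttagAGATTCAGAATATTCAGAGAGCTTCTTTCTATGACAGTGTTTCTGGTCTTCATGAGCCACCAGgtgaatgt

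MYH10-001, which holds none of these exons, had 19.2, 13.6 and 18.6 FPKM in shPCAT1 samples and 11.2, 16.4 and 38.8 FPKM in shSCR samples. Its share of the gene was 67.3%, 42.6% and 62.7% in shPCAT1 samples and 43.3%, 58.3% and 92.6% in shSCR samples, and the ranges overlapped. Of the full-length forms with an insert, both named after their values were seen, MYH10-201 had 6.81, 7.65 and 8.15 FPKM in shPCAT1 samples and 12.0, 7.18 and 0 FPKM in shSCR samples. MYH10-002 was at 7.70 FPKM in shPCAT1 replicate 2 and at 0.407 to 1.05 FPKM in the other 5 samples. Neither form was called, and in each of them 1 library lay far from the other 5.

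The remaining 4 tested forms, MYH10-003, MYO18A-001, MYO18A-020 and MYO1C-006, were minor and none was called. MYO18A-020 was the sole form among them whose groups did not overlap, at 0.798, 0.747 and 0.650 FPKM in shPCAT1 samples, against 1.03, 0.880 and 4.46 FPKM in shSCR samples.

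**Figure D3:**
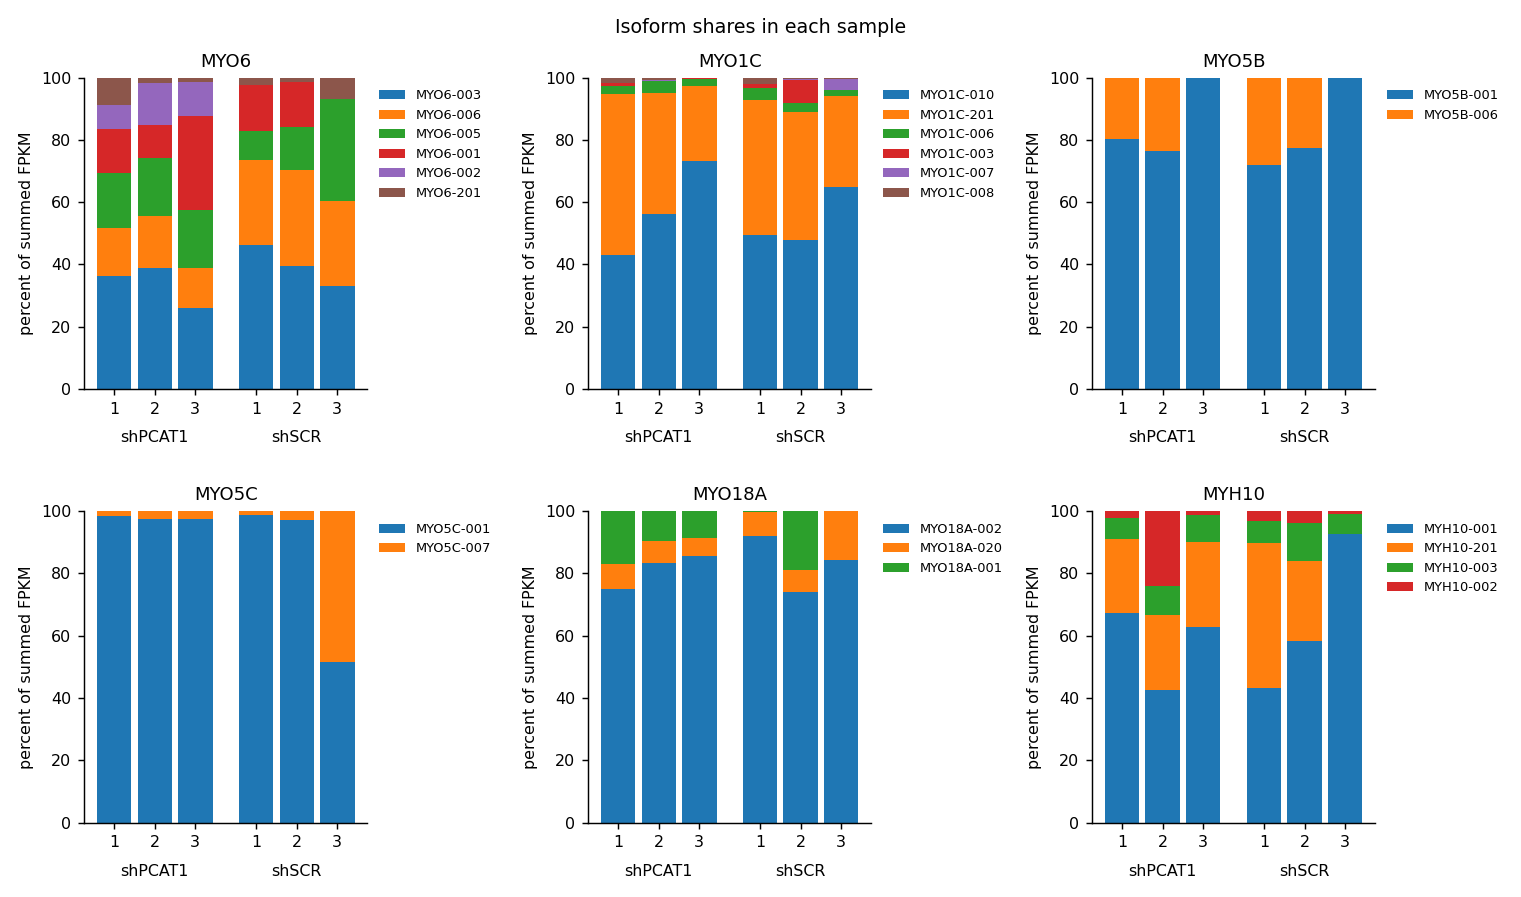
Share of each listed transcript in the summed FPKM of its gene, in percent, for the 6 myosin genes with 2 or more listed transcripts. Each bar is 1 sample, shPCAT1 at left and shSCR at right, and colours are transcripts. MYO6-002 took 7.62% to 13.7% in shPCAT1 samples and none in shSCR samples, and MYO5C-007 took 48.5% in shSCR replicate 3 alone.

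**Figure D4:**
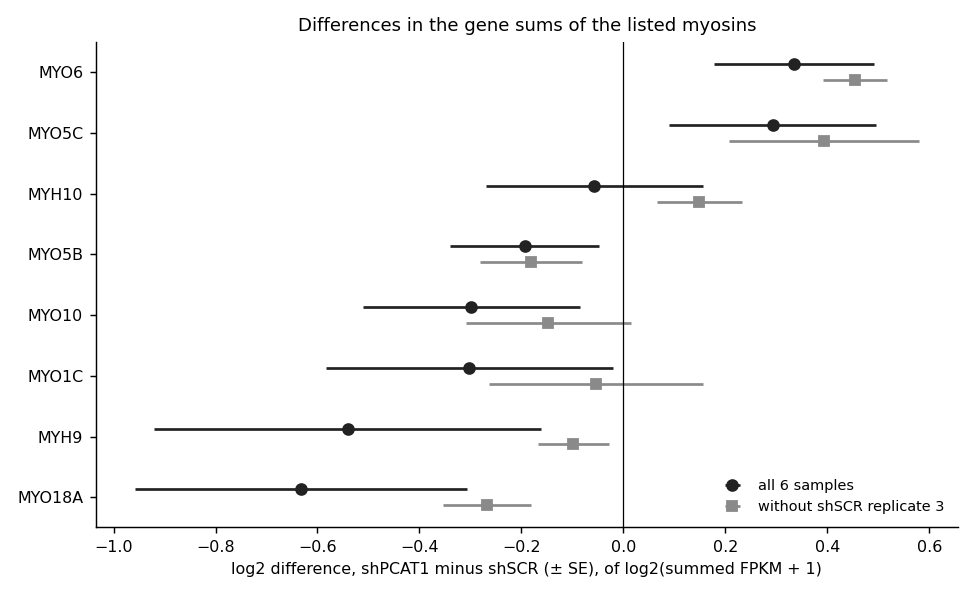
Fitted log2 difference of each gene sum, shPCAT1 minus shSCR, with its standard error, from limma on log2(summed FPKM + 1). Circles use all 6 samples and squares leave out shSCR replicate 3. MYO18A lay at -0.63 with all samples and at -0.27 without that library, while MYO6 lay at 0.33 and 0.45.

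The 5 tested genes whose pattern over the 6 samples was most like that of MYO6 were CALD1, MICU2, NMT2, ZC3H12A and ZNF649, by the root mean square distance between mean-centred log2(summed FPKM + 1) values. CALD1, which encodes caldesmon, had a distance of 0.0275, at 78.7, 81.0 and 76.4 FPKM in shPCAT1 samples and 57.9, 61.2 and 75.2 FPKM in shSCR samples. The other 4 had distances of 0.0498 to 0.0547, beside a median of 0.407 over the 10824 genes compared. In each of the 5, as in MYO6, shSCR replicate 3 was the shSCR sample nearest to the shPCAT1 samples, which follows from choosing them by likeness to MYO6.

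Genes that work with the myosins were described in 4 lists, with 40 genes tested and 0 called by limma. Before adjustment, the limma p was 0.05 or less for 1 other myosin heavy chain and 3 light chains or regulators. The same held for 1 myosin VI partner and 2 myosin V partners. Over all genes tested, 1867 of 10825 reached that level, a share close to that of the lists. Without shSCR replicate 3, 2 of the 40 were called, beside 8.03% of all genes.

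Of 6 tested other myosin heavy chains, 3 were above 0 and 3 below, with a median log2 difference of -0.02. MYO5A, the melanosome and vesicle carrier, had 5.50, 6.14 and 6.54 FPKM in shPCAT1 samples and 4.44, 4.56 and 2.58 FPKM in shSCR samples, with a difference of 0.56 ± 0.22, or 0.36 ± 0.10 without shSCR replicate 3, that was not called. MYO9A, a motor with a RhoGAP domain, was listed at 0 in shSCR replicate 3 and at 1.38 to 2.01 FPKM elsewhere. MYO19, a mitochondrial myosin, had a difference of -0.15 ± 0.17, or -0.04 ± 0.13 without shSCR replicate 3, and was not called.

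Of 15 tested light chains and myosin II regulators, 5 were above 0 and 10 below, with a median of -0.16. ROCK1, the kinase that activates myosin II through its light chain, had 14.4, 12.8 and 17.5 FPKM in shPCAT1 samples, against 8.16, 9.80 and 7.86 FPKM in shSCR samples. The samples did not overlap, and the log2 difference of 0.72 ± 0.18 was not called (limma adjusted p = 0.147). PPP1R12A, the targeting subunit of the phosphatase that opposes ROCK1, had a difference of 0.45 ± 0.17, and the myosin chaperone UNC45A had one of -0.46 ± 0.33, or -0.09 ± 0.11 without shSCR replicate 3. Neither was called.

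Of 8 tested myosin VI adaptors and partners, 3 were above 0 and 5 below, with a median of -0.33 and, without shSCR replicate 3, of -0.10. TAX1BP1, an autophagy receptor that binds the myosin VI tail, had 93.3, 90.4 and 85.7 FPKM in shPCAT1 samples, against 59.6, 56.1 and 33.3 FPKM in shSCR samples. Its groups did not overlap, and it was not called with all samples (0.89 ± 0.24 on the log2 scale, limma adjusted p = 0.172). Without shSCR replicate 3 it was called (0.63 ± 0.07, limma adjusted p = 0.0214). The endosomal adaptors TOM1L2 and TOM1 had differences of -0.80 ± 0.34 and -0.57 ± 0.29 with all samples, and of -0.43 and -0.31 without shSCR replicate 3, and neither was called.

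Of 11 tested myosin V adaptors and partners, 6 were above 0 and 5 below, with a median of 0.35. RAB11FIP2, which links RAB11 to MYO5B, had 2.58, 7.74 and 6.88 FPKM in shPCAT1 samples and 6.45, 2.30 and 0.0427 FPKM in shSCR samples, which overlapped. SPIRE2, an actin nucleator that binds class V myosins, had a log2 difference of -0.89 ± 0.36, or -0.52 ± 0.17 without shSCR replicate 3, and the light chain DYNLL2 one of -0.86 ± 0.96, and neither was called. DYNLL2 was at 42.5 FPKM in shSCR replicate 3 and at 2.33 to 5.43 FPKM in the other 5 samples, and without that library its difference was 0.26. RAB8A, a GTPase of exocytic carriers named after its values were seen, was the other gene called without shSCR replicate 3, at 29.3, 28.5 and 27.7 FPKM in shPCAT1 samples, against 18.1, 21.2 and 15.5 FPKM in shSCR samples.

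**Figure D5:**
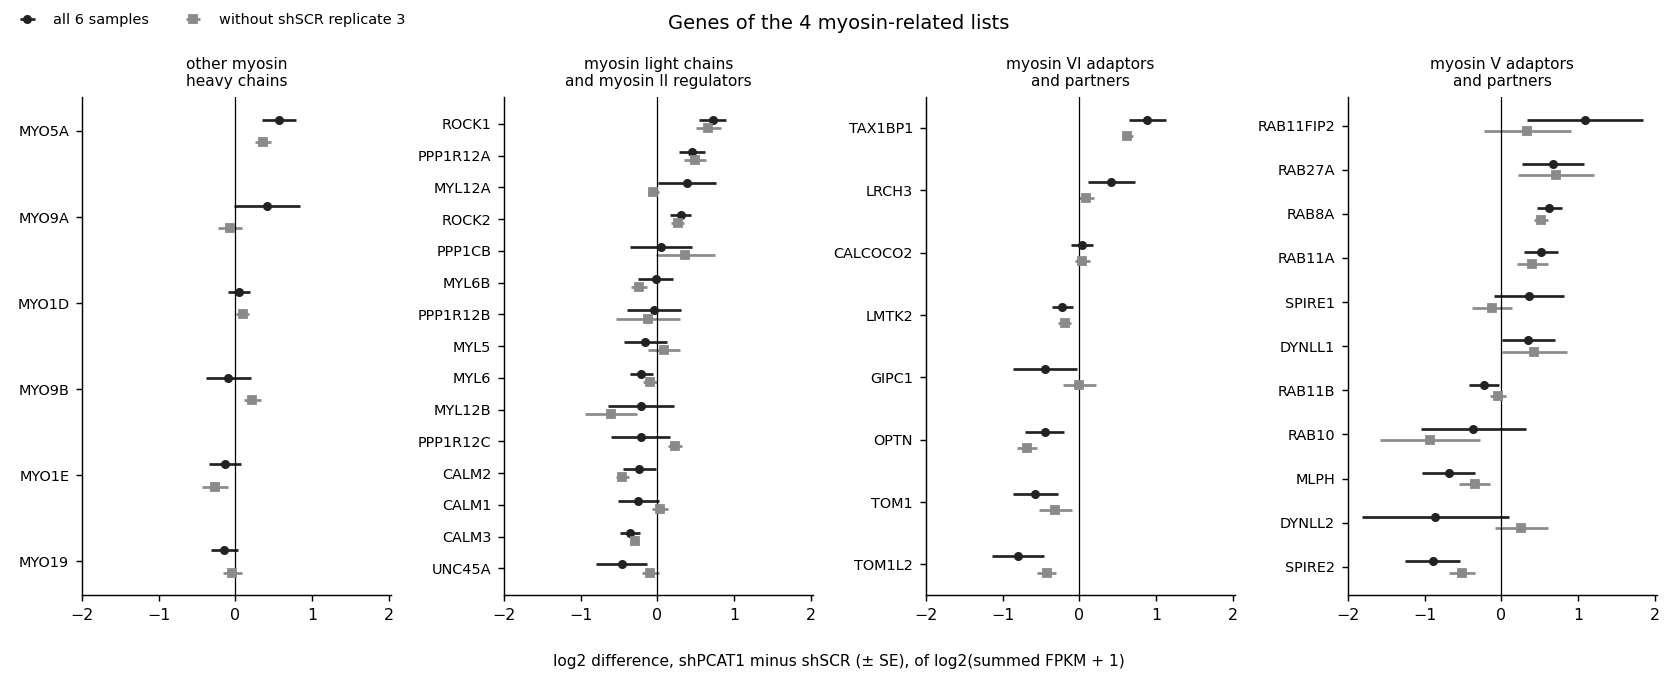
Fitted log2 difference, shPCAT1 minus shSCR, with its standard error, for each tested gene of the 4 lists of other myosin heavy chains, light chains and regulators, myosin VI partners and myosin V partners. Circles use all 6 samples and squares leave out shSCR replicate 3. TAX1BP1 lay at 0.89 with all samples and at 0.63 without that library, and DYNLL2 lay at -0.86 and 0.26.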

How the data were processed

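The study's methods describe stranded libraries from poly(A) RNA and single reads of 50 bases. The deposited FPKM values were computed per transcript by the authors. The methods name TopHat for alignment to hg19, while HISAT2 2.0.4, also with hg19, stands in the submitters' processing notes, and which of them made the table could not be settled. Columns of the authors' group means, fold changes, p and q values were not used. Only transcripts with a mean of at least 0.5 FPKM in a group were listed, all protein coding.

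FPKM were summed per gene, filtered at a mean of 1 FPKM over the 6 samples, and tested as log2(FPKM + 1) with limma 3.58.1 in R 4.3.3 (trend and robust settings, Benjamini-Hochberg adjustment over all features, threshold 0.05). A fold on this scale understates the change of low transcripts. On simulated data the gene test recovered 19 of 100 genes changed by 1 log2 unit and 58 of 100 changed by 2, and the transcript test 0 and 8, with 2 and 0 false calls. The simulated noise was normal with 1 spread per feature over all 6 samples, and changed features had a mean log2(FPKM + 1) above 2. The rates thus do not cover lower features or a single deviating library. Members and lists were chosen with earlier results of these data known, and 2 genes of the lists are not reported here and were left out of the lists' counts, medians and plot. Named were every MYO6 transcript, of the other members each called or most abundant transcript (at least 1 FPKM) and any whose share differed by 20 percentage points, and from each list the called genes and the 3 with the largest absolute difference.

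Alternatives were a pseudocount of 0.1, no filter or one of 5 FPKM, upper quartile and quantile scaling, the replicate number as a block, a fit without trend, GC correction, each sample left out, and, chosen after seeing the data, GC correction without shSCR replicate 3. GC content came from GENCODE release 44 transcripts, for 97.8% of genes, and MYO1C had no value.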

Additional observations from a re-analysis of the deposited data

How the results depend on the processing

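The isoform share of MYO6-002 differed by 9.3 to 12.3 percentage points with each sample left out. The count of called member transcripts was 1, and it was 0 with a pseudocount of 0.1, no filter, upper quartile scaling, quantile scaling, GC correction, and GC correction without shSCR replicate 3, and 0 with each sample left out. The cause was not tested. It was also 0 with a filter at a mean of 5 FPKM, which removed MYO6-002 before testing. The labels give both groups replicate numbers 1 to 3, but same-numbered samples did not deviate together (correlations of -0.024, -0.014 and 0.021). With the replicate block the count of called member transcripts was 0, also with GC correction, and over all features 2 genes and 0 transcripts were called, against 95 and 20. The count of called member genes was 0 to 1 with each sample left out, MYO6 being called without shSCR replicate 3 (0.45). The related lists had 0 to 2 called genes with each sample left out and 3 after GC correction without shSCR replicate 3. In that last fit 657 of all 10596 genes tested were called. Without that library 869 genes and 86 transcripts were called in all. Some log2 differences changed sign. MYH10 went to 0.04 under upper quartile scaling, 0.07 under quantile scaling, 0.0027 after GC correction with or without the replicate block, 0.18 after GC correction without shSCR replicate 3, and -0.19 to 0.15 with each sample left out. MYH9 was at 0.04 after GC correction without shSCR replicate 3. MYO6-003 was at -0.17 after GC correction with or without the replicate block, at -0.00087 after GC correction without shSCR replicate 3, and at -0.04 to 0.28 with each sample left out. MYO6-201 was at -0.37 to 0.69 with each sample left out. No other member gene or MYO6 transcript changed sign under any of these alternatives. FPKM carry no depth, so no limit of detection could be given for the transcripts listed at 0.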
